A study of Mus musculus with 93 samples.

Results

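The 10 genes described here encode secreted proteins of the liver's extracellular matrix that are not collagens. Fn1, Tnc and Postn are adhesive or matricellular glycoproteins, and Fbn1, Eln and Efemp1 belong to elastic fibres and microfibrils. Lum, Dcn and Bgn are small leucine-rich proteoglycans, and Vcan is a large chondroitin sulfate proteoglycan. The genes were taken by name, as the rows of the count table whose Ensembl identifiers carry these symbols. All 10 were found among the 53465 genes of the table, and all 10 were among the 19110 genes with enough reads to be tested.

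Liver RNA had been sequenced from 93 male mice of 7 inbred strains. C57BL/6J, DBA/2J, A/J and 129S1/SvImJ are domesticated strains, whereas WSB/EiJ, CAST/EiJ and PWK/PhJ were derived from wild mice. Every mouse lived at 30°C, thermoneutrality (TN) for a mouse, from 6 weeks of age, so that CD and WD groups shared the housing. From 7 weeks of age they ate either the control diet (CD), with 10% of its energy as fat, or the western-style diet (WD), with 40%. The methods state 17 weeks of diet, sacrifice at 24 weeks of age after a 4 h fast, and perfusion before the liver was taken. On CD there were 8 C57BL/6J, 6 DBA/2J, 5 A/J, 7 129S1/SvImJ, 6 WSB/EiJ, 7 CAST/EiJ and 6 PWK/PhJ mice. On WD there were 8, 7, 6, 6, 6, 8 and 7 mice of these strains in the same order. The mice belonged to 7 cohorts, and each strain was split over 2 or 3 of them with both diets in each. Whole liver tissue was used, so more cells of a type and more RNA per cell cannot be told apart.

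The matrix surrounds the liver's vessels and ducts and lies as a thin meshwork in the space between hepatocytes and the sinusoids. Hepatocytes make the fibronectin of blood plasma, whereas most other matrix proteins are made by stellate cells, portal fibroblasts and other mesenchymal cells. When a liver scars, stellate cells and fibroblasts turn into myofibroblasts and lay down collagen together with tenascin, periostin, versican, fibrillin and elastin. Small leucine-rich proteoglycans bind collagen fibrils and set their spacing.

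Each mouse had between 40020424 and 49894856 reads on genes (median 46618609). The level of a gene is given as CPM, the count scaled to a common library size with TMM factors, and CPM per kilobase of exon (RPKM) where genes are compared with each other. No gene of the hepatocyte and stellate cell marker lists was at 0 in any mouse, and at most 1 of 8 cholangiocyte genes was. There were 2 C57BL/6J mice that stood apart from their groups, CD replicate 2 and WD replicate 3. Their summed cholangiocyte markers were 475 and 437 CPM against at most 228 and 240 CPM in the other 7 mice of each group, and their portal fibroblast and mesothelium markers were 66.3 and 60.1 CPM against at most 22.1 and 32.8 CPM. CAST/EiJ WD replicate 3 had 50.7 CPM of the latter markers against at most 19.5 CPM in its group. Both lists hold Krt19, so their sums are not independent. Diet effects in C57BL/6J and CAST/EiJ, and levels on CD that rest on the first of these mice, are also given without them. Adipocyte markers were at 72.6 CPM in C57BL/6J CD replicate 2 against at most 11.4 CPM in its group. Markers of pancreas and gallbladder were high in single mice of several groups, at 1175 CPM in a further CAST/EiJ mouse on WD, 910 CPM in a DBA/2J mouse on CD, 734 CPM in a WSB/EiJ mouse on CD, and 434 and 257 CPM in A/J mice on WD and CD. Smaller maxima were 154 CPM in PWK/PhJ on WD (median 14.8), 112 CPM in CAST/EiJ on CD (median 1.96) and 83.9 CPM in C57BL/6J on WD (median 5.73). None of the 6 tested genes of this list was called in any strain.

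Tnc (tenascin C), Vcan (versican) and Postn (periostin) showed the largest responses to WD, and PWK/PhJ was the strain in which all of them were largest. The sequences just upstream of their annotated starts are shown because all of them rose in that strain. They are the 250 bases before the start in RefSeq (GRCm38.p6), read 5′ to 3′ on the gene's strand, and capitals mark any match to one of the motifs searched.
Postn, plus strand, chr3:54360857-54361106: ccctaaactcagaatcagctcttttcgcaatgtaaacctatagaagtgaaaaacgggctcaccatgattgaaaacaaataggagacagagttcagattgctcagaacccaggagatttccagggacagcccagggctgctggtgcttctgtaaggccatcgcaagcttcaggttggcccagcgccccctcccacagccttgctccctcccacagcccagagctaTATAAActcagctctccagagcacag
Tnc, minus strand, chr4:64047016-64047265: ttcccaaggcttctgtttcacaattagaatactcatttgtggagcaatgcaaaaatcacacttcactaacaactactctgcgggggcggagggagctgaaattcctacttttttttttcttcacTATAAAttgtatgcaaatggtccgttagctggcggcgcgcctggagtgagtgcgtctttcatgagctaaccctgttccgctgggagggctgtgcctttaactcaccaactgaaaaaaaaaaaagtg
Vcan, minus strand, chr13:89742513-89742762: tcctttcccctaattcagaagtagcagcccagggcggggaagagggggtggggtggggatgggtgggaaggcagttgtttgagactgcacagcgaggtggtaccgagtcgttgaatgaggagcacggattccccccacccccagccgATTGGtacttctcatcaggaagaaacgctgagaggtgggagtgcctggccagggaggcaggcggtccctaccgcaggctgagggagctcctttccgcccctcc

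On both strands 6 motifs were searched. TATAAA is the core of the TATA box and CCAAT is the box of that name. TGANTCA is bound by AP-1, TGACGTCA is the cAMP response element, CAGACA is bound by Smad proteins and GGAATG by TEAD proteins. In the Postn window TATAAA lay 26 to 21 bases before the start. The first of 2 Tnc windows held TATAAA 126 to 121 bases before the start, and Vcan held CCAAT on the opposite strand, 103 to 99 bases before the start. TATAAA occurred in 12.4% and CCAAT in 33.8% of 32851 upstream windows of this length. The second Tnc window, which overlaps the first and holds the same TATAAA, also held CAGACA, present in 17.1% of windows, and Efemp1 held TGANTCA, present in 6.75%. The windows of Fbn1 and Bgn and the other Postn window held none of the 6. TGACGTCA (1.55% of windows) and GGAATG (12.6%) were found in no window of these genes. Windows were at hand for 6 of the 10 genes, so Fn1, Lum, Dcn and Eln are only named. A match describes the letters and shows no binding.

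The gene of Tnc (ENSMUSG00000028364) lies on chromosome 4 at 63959785 to 64047015, that of Vcan (ENSMUSG00000021614) on chromosome 13 at 89655312 to 89742509, and that of Postn (ENSMUSG00000027750) on chromosome 3 at 54361109 to 54391037 (GRCm38). Fn1 lies on chromosome 1 at 71585520 to 71653200, Fbn1 on chromosome 2 at 125300594 to 125507993, Eln on chromosome 5 at 134702593 to 134747323, Efemp1 on chromosome 11 at 28853204 to 28926743, and Bgn on chromosome X at 73483602 to 73495933. A gene on the opposite strand overlaps 176 exonic bases of Tnc, 292 of Fn1, 267 of Eln and 2442 of Fbn1. Whether the counting used strand is not given in the sources used here, so reads of these partners cannot be told apart.

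Which of the matrix genes WD changed was asked first in PWK/PhJ, the strain with the most calls. In PWK/PhJ, 7 of the 10 genes rose on WD, where 15.1% of all genes tested did, and none fell, where 14.5% did. The 7 were Vcan, Tnc, Postn, Lum, Fbn1, Bgn and Dcn. In each of them all 7 WD mice lay above all 6 CD mice. The median log2 fold change of the 10 genes was 1.13, against -0.01 for all genes tested.

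Vcan, which binds hyaluronan and loosens the matrix around migrating cells, was between 0.0603 and 0.262 CPM on CD in PWK/PhJ, with a median of 0.126 CPM. On WD the lowest mouse was at 1.01, the median at 2.29 and the highest at 4.40 CPM. The means differed 19.4-fold, from 0.134 ± 0.070 (SD, n = 6) to 2.61 ± 1.25 CPM (n = 7), with a log2 fold change of 4.18 (SE 0.53, adjusted p = 9.5e-10). The CD values rested on only 3 to 13 reads per mouse, so the size of the fold is less certain than its direction. These p-values, like those that follow, come from limma-voom over all 19110 genes with Benjamini-Hochberg adjustment, and a call means an adjusted p below 0.05.

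Tnc, an anti-adhesive glycoprotein that adult tissues make mainly after injury, was at 0.0634 to 0.282 CPM on CD, median 0.195, in PWK/PhJ. On WD it was at 1.39 to 4.76 CPM, median 2.84. The log2 fold change was 4.06 (SE 0.59, adjusted p = 4.9e-08), a 17.1-fold difference of means. As for Vcan, reads on CD were few, between 3 and 14 per mouse.

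Postn, a matricellular protein that helps to cross-link collagen, differed most clearly. PWK/PhJ mice on CD had 0.834 to 1.48 CPM, median 1.11, with 40 to 70 reads per mouse. On WD they had 7.49 to 21.3 CPM, median 13.4. The groups were far apart, and the log2 fold change was 3.57 (SE 0.35, adjusted p = 1.8e-13).

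Among the small leucine-rich proteoglycans, Lum (lumican), which binds fibrillar collagen, ran from 1.39 to 3.13 CPM on CD in PWK/PhJ, median 2.03. On WD it ran from 6.46 to 30.0 CPM, median 12.2. Its mean rose 7.32-fold, with a log2 fold change of 2.77 (SE 0.50, adjusted p = 6.5e-06). The WD mice also spread widely, with an SD of 8.15 CPM around a mean of 14.9. Bgn (biglycan) and Dcn (decorin), which are related to Lum and far more abundant, rose less. Bgn was at 98.3 to 143 CPM on CD, median 138, and at 171 to 238 CPM on WD, median 223, a log2 fold change of 0.69 (SE 0.14, adjusted p = 6.1e-05). Dcn was at 75.0 to 112 CPM on CD, median 103, and at 133 to 157 CPM on WD, median 139, a log2 fold change of 0.51 (SE 0.12, adjusted p = 0.00077). Lum and Dcn are neighbours on chromosome 10, with Dcn at 97479609 to 97518143 and Lum at 97565128 to 97572703 on the same strand (GRCm38).

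Fbn1 and Eln are the main components of the elastic fibre, as the microfibril scaffold and its elastic core. Fbn1 (fibrillin 1) was at 2.62 to 5.62 CPM on CD in PWK/PhJ, median 4.48, and at 7.46 to 17.6 CPM on WD, median 13.4. It rose 2.95-fold, with a log2 fold change of 1.56 (SE 0.24, adjusted p = 2.5e-07). Eln (elastin) was at 5.59 to 7.71 CPM on CD and at 6.78 to 14.3 CPM on WD, with medians of 6.90 and 12.9. The groups overlapped, since 5 of 7 WD mice were above every CD mouse, and the call was missed at a log2 fold change of 0.70 (SE 0.31, adjusted p = 0.082). Without the 2 C57BL/6J mice that stood apart, whose spread enters the error of every strain, the same log2 fold change of 0.70 had an adjusted p of 0.00045. Fn1 (fibronectin) and Efemp1 (fibulin 3, a glycoprotein of elastic tissue) were not called in PWK/PhJ. Fn1 was at 1186 to 1841 CPM on CD and 1276 to 1554 CPM on WD (adjusted p = 0.11). Efemp1 was at 7.88 to 11.2 CPM on CD and 8.62 to 11.7 CPM on WD (adjusted p = 0.29).

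**Figure D1:**
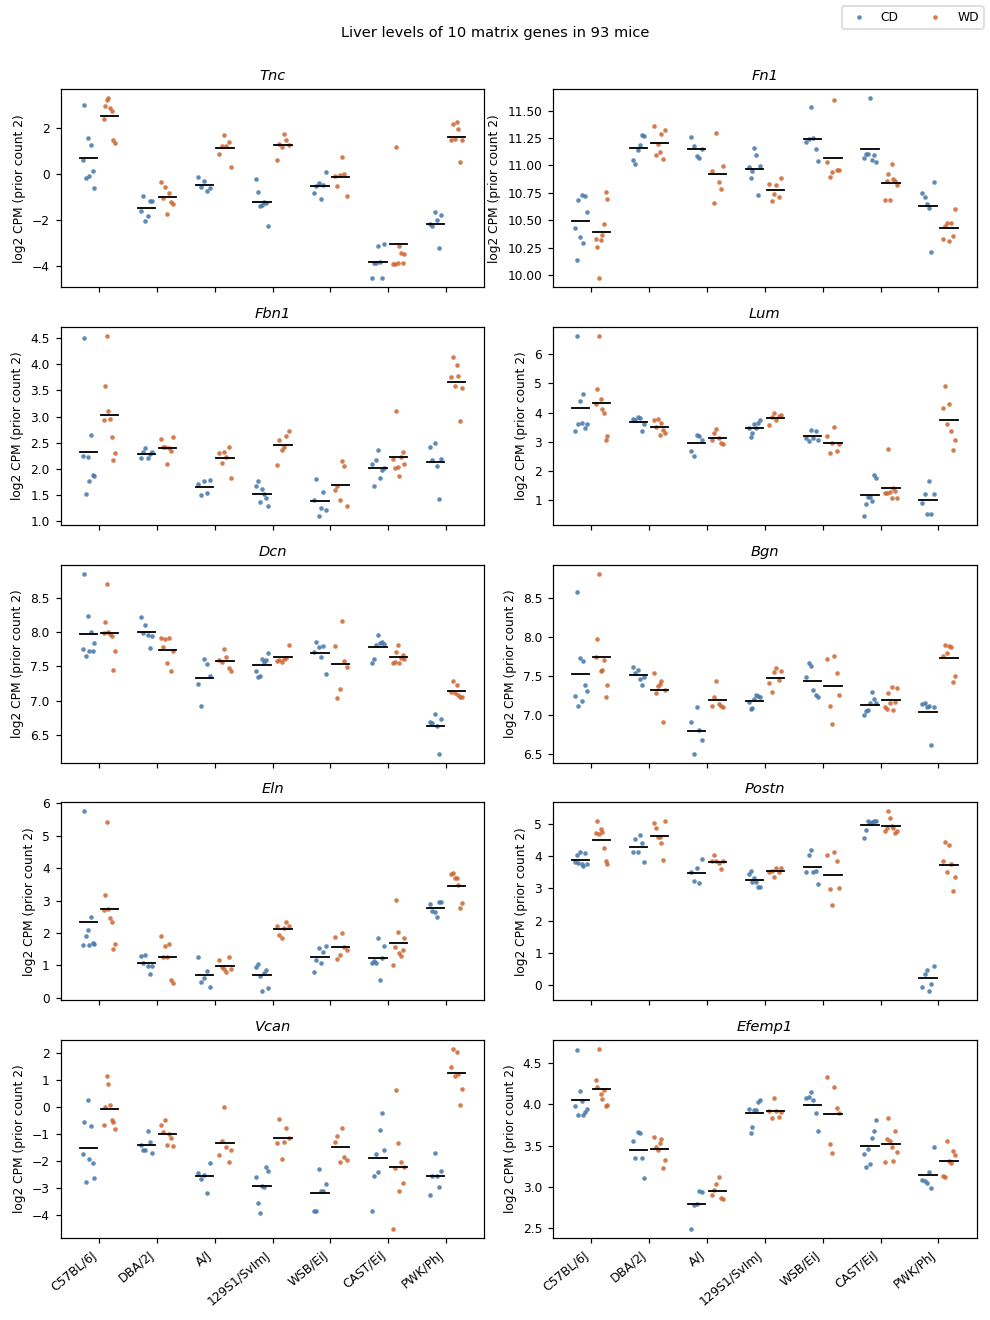
Each point is 1 mouse and each black bar the mean of a strain on CD (blue) or WD (orange), with the level on the vertical axis as log2 CPM with a prior count of 2. In PWK/PhJ the 7 WD mice lie above the 6 CD mice for Tnc, Fbn1, Lum, Dcn, Bgn, Postn and Vcan, and the C57BL/6J mice include 1 on each diet that is high for Fbn1, Lum, Bgn and Eln.

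The rises in PWK/PhJ were present in both of its cohorts, of 3 CD and 3 WD mice and of 3 CD and 4 WD mice. The difference of mean log2 CPM was 4.11 and 3.64 for Vcan, 3.74 and 3.89 for Tnc, 3.66 and 3.43 for Postn, and 3.35 and 2.23 for Lum. It was 1.46 and 1.67 for Fbn1, 0.67 and 0.73 for Bgn, and 0.45 and 0.57 for Dcn. For Eln the cohorts differed by 1.05 and 0.41. The lowest WD values of Vcan, Tnc, Postn, Lum, Fbn1, Bgn and Eln in this strain all came from WD replicate 6. Leaving this mouse out added Eln to the calls (adjusted p = 0.043).

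129S1/SvImJ had 4 rises among the 10 genes, where 14.5% of all genes rose, and no fall, where 13.6% fell. They were Tnc, Vcan, Eln and Fbn1, and in each of them all 6 WD mice lay above all 7 CD mice. Tnc went from 0.169 to 0.837 CPM on CD (median 0.379) to 1.52 to 3.33 CPM on WD (median 2.44), a log2 fold change of 2.60 (SE 0.47, adjusted p = 1.3e-05). Vcan went from 0.0213 to 0.168 CPM on CD (median 0.0867, at most 8 reads) to 0.216 to 0.688 CPM on WD (median 0.385), a log2 fold change of 2.16 (SE 0.62, adjusted p = 0.0052). On WD the Vcan range lay below that of PWK/PhJ, whereas the Tnc ranges of the strains overlapped.

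Eln was called in no other strain. In 129S1/SvImJ it was at 1.11 to 2.04 CPM on CD, median 1.67, and at 3.54 to 4.99 CPM on WD, median 4.51, a log2 fold change of 1.44 (SE 0.48, adjusted p = 0.018). Fbn1 was at 2.38 to 3.34 CPM on CD and at 4.18 to 6.52 CPM on WD, with medians of 2.83 and 5.54, a log2 fold change of 0.95 (SE 0.29, adjusted p = 0.0087). Fbn1 and Eln thus both rose in this strain, and both were higher on WD in each cohort (1.10 and 1.70 for Eln, 0.73 and 1.13 for Fbn1). Efemp1 was not called (log2 fold change 0.02, adjusted p = 0.91), nor were Lum, Bgn, Dcn, Postn and Fn1, although Bgn was higher in all 6 WD mice than in any CD mouse (log2 fold change 0.30, adjusted p = 0.10).

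C57BL/6J also had 4 rises, with 14.3% of all genes rising, and no fall, with 11.9% falling. Tnc was at 0.614 to 8.15 CPM on CD, median 1.28, and at 2.53 to 9.88 CPM on WD, median 7.09, a log2 fold change of 1.84 (SE 0.27, adjusted p = 1.3e-07). The highest CD mouse was replicate 2, one of the mice that stood apart, and the other 7 CD mice reached 2.98 CPM. Vcan was at 0.103 to 1.16 CPM on CD, median 0.236, and at 0.530 to 2.16 CPM on WD, median 0.810, a log2 fold change of 1.58 (SE 0.40, adjusted p = 0.0014). For both genes the CD and WD ranges overlapped.

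Postn was at 12.9 to 17.2 CPM on CD in C57BL/6J, median 13.9, and at 13.4 to 34.0 CPM on WD, median 25.9, a log2 fold change of 0.62 (SE 0.16, adjusted p = 0.0020). Its difference lay in the first cohort, where 3 CD mice averaged 14.6 and 5 WD mice 28.2 CPM. In the second cohort, 5 CD mice averaged 14.7 and 3 WD mice 15.6 CPM, a difference of 0.07 in mean log2 CPM against 0.94 in the first. Tnc and Vcan differed in the same direction in both cohorts, by 1.80 and 1.42 for Tnc and by 1.96 and 0.81 for Vcan.

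Fbn1 was at 2.80 to 22.6 CPM on CD in C57BL/6J, median 4.15, and at 4.46 to 23.2 CPM on WD, median 7.68, a log2 fold change of 0.70 (SE 0.21, adjusted p = 0.0092). The highest mouse on each diet was again the one that stood apart. Without WD replicate 3 the log2 fold change was 0.47 and the call was lost (adjusted p = 0.068), whereas without both mice it was 0.82 (adjusted p = 3.9e-05). The call was also lost with cohort within strain in the fit (0.49, adjusted p = 0.077), by edgeR's quasi-likelihood test (adjusted p = 0.089), by DESeq2 (adjusted p = 0.077) and in a separate fit of the strain (adjusted p = 0.25). Eln, at 54.0 CPM in CD replicate 2 and 43.2 CPM in WD replicate 3, lay at 3.03 to 5.55 CPM in the other CD mice and at 2.81 to 9.02 CPM in the other WD mice. It was not called with all mice (log2 fold change 0.41, adjusted p = 0.36) and was called without those 2 (0.53, adjusted p = 0.031), as were Tnc (2.11, adjusted p = 1.8e-09), Postn (0.63, adjusted p = 0.0036) and Vcan (1.57, adjusted p = 0.0029). Bgn (0.23, adjusted p = 0.075), Dcn (0.06, adjusted p = 0.73), Efemp1 (0.17, adjusted p = 0.14) and Fn1 (-0.07, adjusted p = 0.59) were not called without them either. With CD replicate 2 alone left out, 7 genes were called in this strain. Lum reached 98.1 and 98.8 CPM in the 2 mice and 24.8 and 28.0 CPM at most in the others, and it was not called either way (adjusted p = 0.73 with them and 0.50 without). The summed activated myofibroblast markers of the 2 mice were 744 and 1032 CPM against at most 275 and 629 CPM in the others, and the part of these cells in the 4 rises was not tested.

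**Figure D2:**
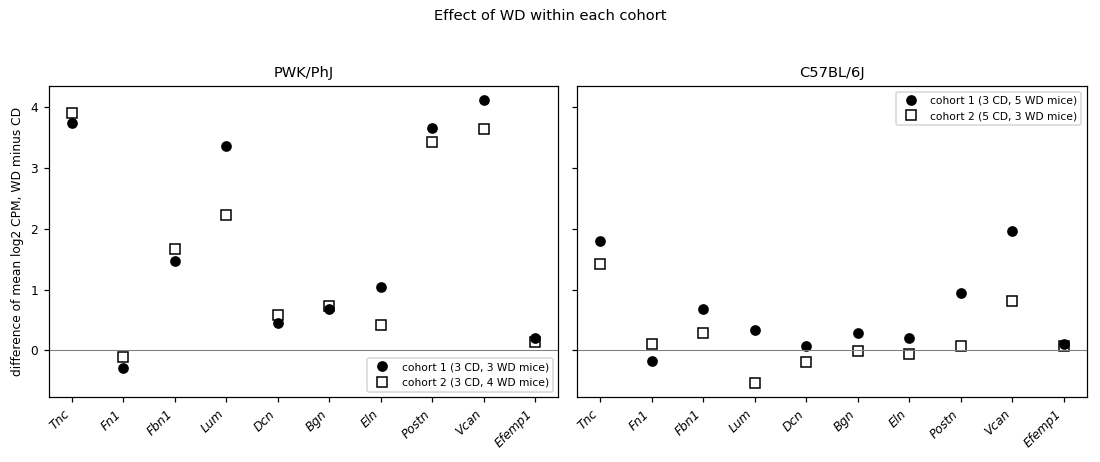
The vertical axis gives the WD minus CD difference of mean log2 CPM within 1 cohort, for each of the 10 genes in PWK/PhJ (left) and C57BL/6J (right), with filled circles for cohort 1 and open squares for cohort 2. In PWK/PhJ both cohorts lie above 0 for the 7 called genes, whereas in C57BL/6J Postn lies at 0.94 in the first cohort and 0.07 in the second.

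A/J had 1 rise, with 4.39% of all genes rising and 4.64% falling. Tnc was at 0.878, 0.641, 0.782, 0.556 and 0.626 CPM in the 5 CD mice and at 1.20 to 3.28 CPM on WD, median 2.32. No WD mouse overlapped the CD mice, and the log2 fold change was 1.63 (SE 0.48, adjusted p = 0.018). Vcan (1.41, adjusted p = 0.18) and Fbn1 (0.55, adjusted p = 0.32) were also higher in all 6 WD mice than in any CD mouse without being called.

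DBA/2J had no call among the 10 genes, where 10.2% of all genes rose and 7.77% fell. Dcn, the gene nearest to a fall, was at 219 to 298 CPM on CD and 172 to 242 CPM on WD (log2 fold change -0.25, adjusted p = 0.17). Postn was at 13.9 to 25.1 CPM on CD and 14.7 to 34.1 CPM on WD (0.36, adjusted p = 0.16). No gene of the 10 was called up by edgeR's quasi-likelihood test or DESeq2 in this strain either.

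WSB/EiJ had no call either, with 4.97% of all genes rising and 3.97% falling. Vcan came nearest to a call. It was at 0.0254 to 0.157 CPM on CD, median 0.0711, with at most 6 reads, and at 0.200 to 0.537 CPM on WD, median 0.298. All 6 WD mice lay above all 6 CD mice, at a log2 fold change of 2.09 (SE 0.72, adjusted p = 0.054), and edgeR's quasi-likelihood test (adjusted p = 0.023) and DESeq2 (adjusted p = 0.0075) called it. Postn was at 8.65 to 18.1 CPM on CD and 5.56 to 17.4 CPM on WD, with a log2 fold change of -0.21 (adjusted p = 0.66).

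CAST/EiJ had 1 fall and no rise, with 9.73% of all genes falling and 9.77% rising. Fn1, the glycoprotein that hepatocytes secrete into plasma, was at 2095 to 3125 CPM on CD, median 2188, and at 1645 to 2066 CPM on WD, median 1858. All 8 WD mice lay below all 7 CD mice, and Fn1 fell by 0.31 on the log2 scale (SE 0.09, adjusted p = 0.0085). The difference was -0.25, -0.25 and -0.35 in the 3 cohorts, with 1 CD mouse in the first of them. Fn1 had values of -0.09 to -0.23 in C57BL/6J, A/J, 129S1/SvImJ, WSB/EiJ and PWK/PhJ and 0.05 in DBA/2J, none of them called, and its diet effects were not shown to differ between strains (F test, adjusted p = 0.32).

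Tnc was nearly absent from CAST/EiJ livers, with 0 to 3 reads in each CD mouse and 1 to 3 reads in 7 of 8 WD mice. The remaining WD mouse, replicate 3, had 99 reads or 2.26 CPM. The same mouse held the highest Fbn1 (8.53 CPM), Lum (6.71 CPM), Eln (8.15 CPM), Postn (41.5 CPM) and Vcan (1.51 CPM) of its group, where the other 7 mice reached 4.92, 2.65, 4.06, 36.1 and 0.353 CPM. Its summed activated myofibroblast markers were 295 CPM against 68.5 to 102 CPM in the others, and its cholangiocyte markers, at 66.1 CPM, were within their range of 65.5 to 91.3 CPM. No fold is given for Tnc, since both diets were otherwise at or under 3 reads. With this mouse left out, Fn1 was again the only member called in CAST/EiJ (log2 fold change -0.32, adjusted p = 0.0094).

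**Figure D3:**
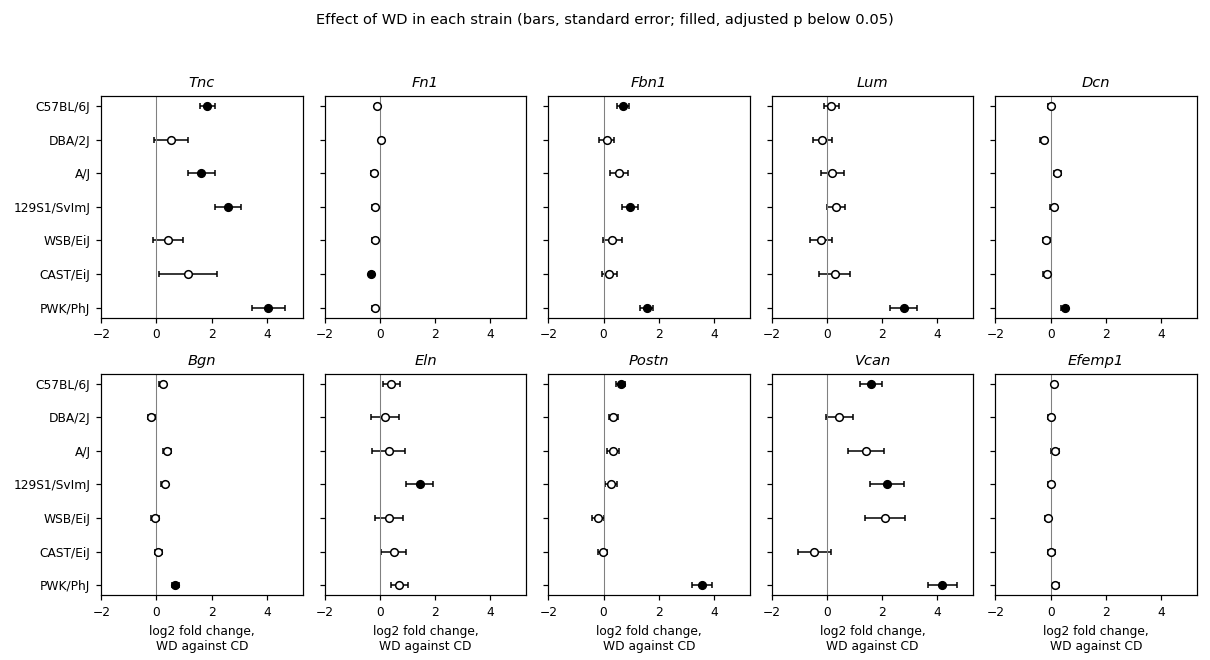
The horizontal axis gives the log2 fold change of WD against CD from limma-voom for each gene and strain, with the standard error as a bar and filled points for an adjusted p below 0.05. PWK/PhJ has 7 filled points, 129S1/SvImJ and C57BL/6J have 4 each, A/J and CAST/EiJ have 1 each, and DBA/2J and WSB/EiJ have none. The CAST/EiJ point of Tnc rests on 0 to 3 reads in every mouse but 1.

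Whether the diet effect differed between strains was tested for each gene in the same fit. The F test of equal effects in all 7 strains was passed by 7 of the 10 genes, against 36.5% of all genes tested. They were Postn (adjusted p = 1.2e-09), Vcan (1.0e-04), Tnc (0.0020), Lum (0.0023), Dcn (0.0035), Bgn (0.0044) and Fbn1 (0.010), the same 7 that rose in PWK/PhJ. Fn1 (0.32), Eln (0.66) and Efemp1 (0.71) missed it. With PWK/PhJ left out, the F test over the other 6 strains was passed by Vcan alone (adjusted p = 0.048). The share of all genes that passed this second test is not given, so the count has no background beside it. Vcan also had few reads, with 0 to 66 per CAST/EiJ mouse on WD and its highest value there in replicate 3.

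Each strain's effect was then set against the mean effect of the other 6. PWK/PhJ differed in the same 7 genes, against 16.3% of all genes. Its log2 effect exceeded that mean by 3.34 (SE 0.36) for Postn, 2.97 for Vcan, 2.70 for Tnc, 2.68 for Lum, 1.09 for Fbn1, 0.57 for Bgn and 0.54 for Dcn, with adjusted p from 2.4e-11 to 0.0049. CAST/EiJ differed in 2 genes, against 14.5% of all genes, with Postn 0.85 and Vcan 2.43 below the mean of the other strains (adjusted p = 0.00066 and 0.0054). WSB/EiJ differed in Postn, 1.06 below (adjusted p = 0.010, 0.947% of all genes), and DBA/2J in Bgn, 0.45 below (adjusted p = 0.048, 7.77% of all genes). The mean of the others includes PWK/PhJ in these 3 strains. Vcan in CAST/EiJ had means of 0.310 CPM on CD and 0.320 CPM on WD, from 1 to 32 and 0 to 66 reads per mouse. Its cohorts gave WD minus CD differences of 1.83 (with 1 CD mouse), -0.07 and -1.11 in mean log2 CPM. Leaving out CAST/EiJ WD replicate 3 moved its log2 fold change from -0.46 to -0.94, called in neither case. The contrasts with the other strains were not recomputed without that mouse. C57BL/6J, A/J and 129S1/SvImJ differed in none of the 10 genes, against 4.69%, 0.466% and 6.28% of all genes, so the larger number of calls in C57BL/6J and 129S1/SvImJ than in DBA/2J or WSB/EiJ was not a tested difference in effect.

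The strains were also compared on CD. All 10 genes differed between strains (F test), as did 93.7% of all genes tested, so this count does not set the 10 genes apart. Reads of every strain had been mapped to the C57BL/6J genome, and the share of reads left unmapped ran from a median of 2.20% in A/J and 2.39% in C57BL/6J to 5.48% in PWK/PhJ and 12.5% in CAST/EiJ. A lower level in a strain and a lower share of its reads that map cannot be told apart here. The unmapped share also moved with diet within strains. In PWK/PhJ it was 2.22% to 4.23% in the 6 CD mice and 5.48% to 8.73% in the 7 WD mice, without overlap, and its part in the 7 rises of this strain was not tested. It was higher on WD at the median in C57BL/6J (2.36% and 2.73%), 129S1/SvImJ (4.69% and 5.67%), WSB/EiJ (4.14% and 8.18%) and CAST/EiJ (10.2% and 13.0%), and lower in DBA/2J (6.54% and 5.04%) and A/J (2.34% and 2.13%), with CD first.

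PWK/PhJ stood apart on CD in several genes, among them Postn, Dcn and Lum, which were higher on WD in this strain. The same CD mice enter both comparisons, so a low level on CD and a large rise are not independent. For Postn, all 6 PWK/PhJ mice on CD lay below all 39 CD mice of the other strains, of which the lowest had 8.09 CPM, and the PWK/PhJ level was 3.74 lower (SE 0.33, log2) than the mean of the other strains (adjusted p = 3.5e-17). Dcn was 1.09 lower (SE 0.10, adjusted p = 4.3e-17), again with all 6 mice below every other mouse on CD. Lum was 2.13 lower (SE 0.46, adjusted p = 5.0e-05), with CAST/EiJ in the same range at 1.32 to 3.59 CPM. Eln went the other way, 1.56 higher (SE 0.29, adjusted p = 2.7e-06), and 1.64 higher (adjusted p = 1.1e-09) without C57BL/6J CD replicate 2. Leaving that mouse out gave differences of -3.75 for Postn, -1.08 for Dcn and -2.08 for Lum. Fn1 was 0.40 lower and Efemp1 0.47 lower, whereas Tnc, Vcan, Fbn1 and Bgn were not called in PWK/PhJ on CD.

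On WD the position of PWK/PhJ among the strains depended on the gene. Postn, at 7.49 to 21.3 CPM, lay among the other strains, which ran from 5.56 to 41.5 CPM. Lum had a mean of 14.9 CPM, between those of 129S1/SvImJ (14.1) and C57BL/6J (27.4). Dcn still had the lowest mean of all strains, at 141 ± 9.25 CPM (n = 7), with 39 of the 41 WD mice of other strains above all of its mice. Vcan (2.61 CPM), Fbn1 (13.1 CPM) and Eln (11.4 CPM) had their highest means in PWK/PhJ, each overlapping C57BL/6J, the next in order.

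Other strains had their own levels on CD. CAST/EiJ had the most Postn, 23.3 to 34.0 CPM with a median of 33.1, which was 1.84 higher (SE 0.14, log2) than the mean of the others (adjusted p = 7.8e-21), and WD left it at 26.3 to 41.5 CPM (adjusted p = 0.95). C57BL/6J had the least Fn1, 0.56 lower (SE 0.07, adjusted p = 3.4e-11), and more Tnc (2.62 higher, SE 0.32, adjusted p = 2.2e-11) and Efemp1 (0.60 higher, SE 0.07, adjusted p = 4.1e-11). Without CD replicate 2 these differences were -0.51 for Fn1, 2.25 for Tnc and 0.51 for Efemp1, with adjusted p from 1.8e-09 to 7.3e-09. A/J had the least Efemp1, 5.57 to 7.65 CPM, 0.88 lower (SE 0.11, adjusted p = 6.8e-10). DBA/2J had more Postn (1.04 higher, adjusted p = 1.8e-08), Lum (1.04 higher, adjusted p = 0.0013) and Dcn (0.51 higher, adjusted p = 1.8e-05).

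In the order of the 7 strain means, most neighbours did not differ beyond their ranges. On CD the ranges of neighbouring strains overlapped in all 6 pairs for Tnc, Fn1, Fbn1, Bgn and Vcan. For Postn and Dcn the gap lay between PWK/PhJ and the next strain, for Lum between CAST/EiJ and A/J, for Eln between WSB/EiJ and PWK/PhJ, and for Efemp1 between A/J and PWK/PhJ. C57BL/6J ranked above PWK/PhJ for Eln through CD replicate 2 alone, since its other 7 mice reached 5.55 CPM and the lowest PWK/PhJ mouse was at 5.59 CPM. Without it all 6 PWK/PhJ mice lay above the 38 remaining CD mice. The highest strain mean on CD was 27.5 times the lowest for Postn, but 1.67 times for Fn1 and 1.73 times for Bgn, or 1.62 times for each of the latter genes without that mouse. No ratio is given for Tnc, whose lowest mean, in CAST/EiJ, rested on 0 to 3 reads per mouse. On WD the ranges parted between PWK/PhJ and the next strain up for Fn1 and Dcn and above CAST/EiJ for Efemp1, and all other neighbours overlapped. On WD the ratio for Postn was 2.68.

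Per length, Fn1 was the most abundant of the 10 genes in each of the 14 groups, at means of 117 to 208 RPKM. Dcn (17.1 to 44.8 RPKM) and Bgn (18.5 to 37.4 RPKM) came next. Efemp1 ran from 3.40 to 9.04 RPKM and Lum from 0.834 to 11.2 RPKM. Postn (0.130 to 3.59 RPKM), Fbn1 (0.215 to 1.08 RPKM) and Eln (0.198 to 1.41 RPKM) followed. Tnc ran from 0.0042 to 0.837 RPKM and Vcan from 0.0051 to 0.180 RPKM. Vcan had the lowest mean in each group but CAST/EiJ on CD, where Tnc was lower. Tnc came next to last in the other groups except C57BL/6J on WD, where it was above Fbn1 (0.837 and 0.768 RPKM), and A/J on WD, where it was above Eln (0.290 and 0.242 RPKM). In CAST/EiJ on WD the order of Tnc above Vcan (0.0406 and 0.0221 RPKM) rested on replicate 3 alone. The other 7 mice averaged 0.0382 CPM for Tnc, with 7.772 kb of exon, and 0.151 CPM for Vcan, with 14.462 kb.

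**Figure D4:**
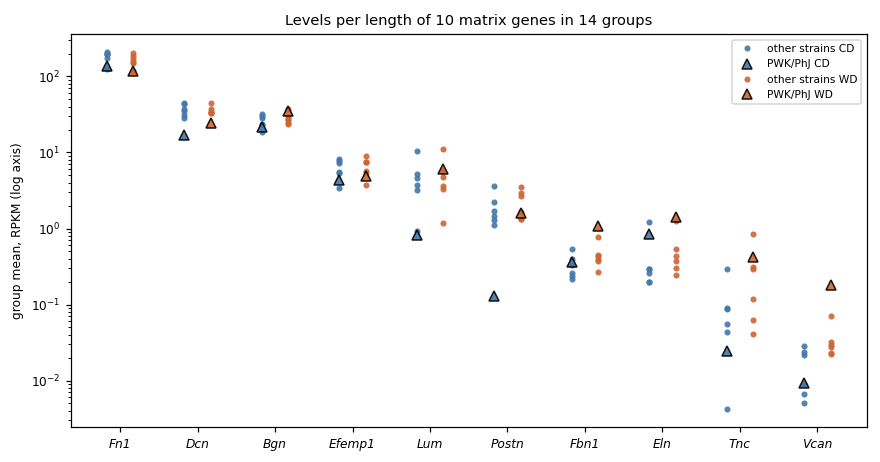
Each point is the mean RPKM of 1 of the 14 groups on a log axis, with CD in blue, WD in orange and PWK/PhJ as outlined triangles, and genes run from Fn1 at the left to Vcan at the right. Fn1 lies above 100 RPKM in every group, and the PWK/PhJ triangles move up most between CD and WD for Postn, Lum, Tnc and Vcan.

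The other matrix genes of the liver were described from fixed lists, which were chosen with earlier results of these data known. Their shares beside those of all genes are a description, and no list was tested as a set. Of 62 other matrix glycoproteins with enough reads (64 listed), PWK/PhJ had 46 rises and 3 falls. The rises numbered 24 in 129S1/SvImJ and 14 in C57BL/6J, but only 4 in A/J, 3 each in DBA/2J and WSB/EiJ, and 2 in CAST/EiJ. In PWK/PhJ these rises made up 74.2% of the list, against 15.1% of all genes. The share was 38.7% against 14.5% for 129S1/SvImJ and 22.6% against 14.3% for C57BL/6J. In DBA/2J (4.84%) and CAST/EiJ (3.23%) the share was below that of all genes (10.2% and 9.77%), and in WSB/EiJ (4.84%) and A/J (6.45%) it was near theirs (4.97% and 4.39%). The falls numbered 4 in C57BL/6J, 3 in 129S1/SvImJ, 2 in DBA/2J and 1 each in A/J, WSB/EiJ and CAST/EiJ. In each strain the share of falls, 1.61% to 6.45% of the list, was below that of all genes, 3.97% to 14.5%. The median log2 fold change of the list was highest in PWK/PhJ (0.91) and 129S1/SvImJ (0.51) and lowest in CAST/EiJ (0.06) and DBA/2J (-0.003). In PWK/PhJ the largest changes were those of Ltbp2, which binds fibrillin microfibrils (0.571 to 6.05 CPM, log2 fold change 3.30), Mfap4, an elastic fibre protein (0.683 to 3.66 CPM, 2.37), and Thbs1, a matricellular protein that activates TGF-beta (1.56 to 6.36 CPM, 2.11). Thbs1 also led the list in C57BL/6J (1.85) and 129S1/SvImJ (1.96, with Ltbp2 at 1.95).

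Of 18 other proteoglycans tested (23 listed), the rises numbered 7 in 129S1/SvImJ, 6 in PWK/PhJ, 5 in DBA/2J, 4 in C57BL/6J, 2 in A/J and 1 each in WSB/EiJ and CAST/EiJ. The shares were 38.9%, 33.3%, 27.8%, 22.2%, 11.1%, 5.56% and 5.56% in this order. Of all genes, 14.5%, 15.1%, 10.2%, 14.3%, 4.39%, 4.97% and 9.77% rose in these strains. In CAST/EiJ 2 genes fell (11.1%, against 9.73% of all genes), and in DBA/2J 1 fell (5.56%, against 7.77%). Omd (osteomodulin), a small leucine-rich proteoglycan, was called in 6 strains, with log2 fold changes from 0.94 (A/J) and 1.21 (129S1/SvImJ) over 1.31 (DBA/2J) and 1.57 (WSB/EiJ) to 1.77 (C57BL/6J) and 1.81 (PWK/PhJ). Unlike Lum, Dcn and Bgn, it was thus called in strains where none of the 10 genes was. Prelp rose in PWK/PhJ from 43.5 to 86.5 CPM (0.97). Esm1, a proteoglycan of endothelial cells, rose in C57BL/6J (3.20) and 129S1/SvImJ (1.80) and fell by 0.83 in CAST/EiJ.

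Of 21 receptors for matrix proteins, 10 rose and 3 fell in PWK/PhJ and 5 rose and 2 fell in both C57BL/6J and 129S1/SvImJ, while none rose in the other 4 strains, where CAST/EiJ had 4 falls, A/J 2, DBA/2J 1 and WSB/EiJ 0. The rises were 47.6% of the list in PWK/PhJ and 23.8% in C57BL/6J and 129S1/SvImJ. Of all genes, 15.1%, 14.3% and 14.5% rose in these strains, and 10.2%, 4.39%, 4.97% and 9.77% in DBA/2J, A/J, WSB/EiJ and CAST/EiJ. The falls were 14.3% of the list in PWK/PhJ, 9.52% in C57BL/6J, 129S1/SvImJ and A/J, 19% in CAST/EiJ, and 4.76% in DBA/2J. Of all genes, 14.5%, 11.9%, 13.6%, 4.64%, 9.73% and 7.77% fell in these strains, and 3.97% in WSB/EiJ. Ddr1, a collagen receptor (log2 fold change 1.87), Cd44, which binds hyaluronan (1.59), and Itga8, an integrin subunit that pairs into a receptor for fibronectin and tenascin (0.94), led in PWK/PhJ. Cd44 was called in C57BL/6J (0.97) and 129S1/SvImJ (1.86) as well. Of the 5 lysyl oxidases, which cross-link elastin and collagen, PWK/PhJ and C57BL/6J each raised 4 and 129S1/SvImJ raised 3, while 1 fell in C57BL/6J and none was called in the other 4 strains. The rises were 80% of the list in PWK/PhJ and C57BL/6J and 60% in 129S1/SvImJ, and the fall was 20% in C57BL/6J. The shares of all genes are those given for the receptors. Loxl1 went from 1.04 to 6.39 CPM in PWK/PhJ (2.51).

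Among markers of the cells that could make these proteins, the summed activated myofibroblast markers had a higher median on WD in all 7 strains, also in those with few or no calls among the 10 genes. Their sum ran from 83.5 to 173 CPM on CD and from 255 to 954 CPM on WD in PWK/PhJ, with 6 of 8 genes called up and none of the 8 at 0 in any mouse. They ran from 39.5 to 70.2 CPM and from 145 to 234 CPM in 129S1/SvImJ (6 of 8 up), and from 77.0 to 744 CPM and from 137 to 1032 CPM in C57BL/6J (7 of 8 up). WSB/EiJ, with no call among the 10 genes, had 49.3 to 76.5 CPM on CD and 80.8 to 132 CPM on WD (0 of 8 up), and A/J, with 1 call, had 47.7 to 58.9 CPM and 77.2 to 140 CPM (1 of 8 up), in both without overlap. The ranges overlapped in DBA/2J, at 56.3 to 67.1 CPM and 66.3 to 101 CPM (0 of 8 up), and in CAST/EiJ, at 47.2 to 72.2 CPM and 68.5 to 295 CPM (1 of 8 up). The share of this list called up was largest in C57BL/6J, at 87.5% where 14.3% of all genes rose. It was 75% both in PWK/PhJ, against 15.1% of all genes, and in 129S1/SvImJ, against 14.5%. CAST/EiJ and A/J each had 12.5%, which is 1 gene, against 9.77% and 4.39% of all genes. WSB/EiJ and DBA/2J had 0%, against 4.97% and 10.2%. Of the activated myofibroblast markers Acta2 and Tagln were not called in PWK/PhJ. The stellate cell list moved less, from 541 to 725 CPM on CD to 681 to 784 CPM on WD in PWK/PhJ, with 4 of 14 genes up and 1 down. Cholangiocyte markers rose as well in PWK/PhJ, from 93.3 to 169 CPM on CD to 188 to 561 CPM on WD, with 6 of 8 genes up, while portal fibroblast and mesothelium markers ran from 16.5 to 19.2 CPM and from 20.8 to 29.3 CPM, with 4 of 12 up. Some genes are in more than 1 list, so the lists do not move independently. Spp1 is shared by activated myofibroblast and cholangiocyte markers, and Krt19 by cholangiocyte and portal fibroblast markers. Acta2 and Tagln are shared by activated myofibroblast and vascular smooth muscle markers. Macrophage markers rose in 8 of 11 genes in PWK/PhJ, sinusoidal endothelium markers fell in 2 of 7, and none of 6 vascular smooth muscle genes or 4 adipocyte genes was called. Shares up in PWK/PhJ were 28.6% for stellate cell, 75% for cholangiocyte and 72.7% for macrophage markers, against 15.1% of all genes. Portal fibroblast and mesothelium markers had 33.3% up. Shares down were 7.14% for stellate cell and 28.6% for sinusoidal endothelium markers, against 14.5% of all genes. Hepatocyte markers fell in 6 of 10 genes in PWK/PhJ and in 2 to 6 of 10 in the other strains. The share was 60% in PWK/PhJ and 129S1/SvImJ, 50% in C57BL/6J and A/J, 30% in WSB/EiJ and CAST/EiJ, and 20% in DBA/2J. Of all genes, 14.5%, 13.6%, 11.9%, 4.64%, 3.97%, 9.73% and 7.77% fell in these strains, in this order. The part of any of these cell types in the changes of the 10 genes was not tested.

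Over the 14 group means, each gene was set beside the genes whose log2 CPM followed it most closely. These correlations describe 14 means that share strains, and they carry no test. Vcan ran with Cdk14, Col3a1, a fibrillar collagen, and Slc43a2 (Pearson r = 0.93, 0.92 and 0.90), and Fbn1 with Atp8b2, Slc43a2 and Ltbp3, which binds TGF-beta to microfibrils (0.93, 0.93 and 0.93). Bgn ran with Csrp1, the collagen receptor Mrc2 and Col16a1 (0.92, 0.89 and 0.89), and Eln with Cd34, Ncf1 and Psmd10 (0.93, 0.92 and 0.92). Efemp1 ran with Ogn, a small leucine-rich proteoglycan, and Phb (0.93 and 0.91), and Dcn with Gpm6a, Cyb5r4 and Map3k21 (0.92, 0.91 and 0.91). Tnc ran with Ifngr2, Uap1l1 and Pik3cg (0.94, 0.94 and 0.93), Lum with Klhl6, Diaph1 and Kif11 (0.93, 0.92 and 0.92), and Fn1 with Ireb2, Serpina3m and Gm9825 (0.94, 0.91 and 0.91). Postn had the weakest best match, Hexa, followed by Zfp334 and Kcnj16 (0.87, 0.87 and 0.86). Within the set, the closest pair was Fbn1 and Vcan (0.93), followed by Tnc and Lum (0.81) and Dcn and Postn (0.81), while Fn1 ran against Eln (-0.87).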

How the data were processed

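Liver RNA libraries (SMARTER kit, BGISEQ-500) from 93 mice were mapped to the C57BL/6J genome with STAR (2.7.1a on GRCm38, or mm10, in the submitters' processing notes). The table that the authors deposited holds counts of reads per Ensembl gene and mouse, as whole numbers without normalization. Rows that name no gene held 24.5% of a mouse's reads (median) and were left out. Gene symbols (53360 of 53465), coordinates and exon lengths came from GENCODE (GRCm38), and upstream sequences from RefSeq.

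In R 4.3.3, genes were kept with filterByExpr in edgeR 4.0.16 (minimum count 10, 19110 genes), scaled by TMM and fitted with limma 3.58.1 (voom, 14 group means, all mice), after the study's own approach. WD was compared with CD in each strain by the moderated test, with Benjamini-Hochberg adjustment over all genes and a threshold of 0.05. F tests of equal diet effects or CD levels, and contrasts with the mean of the other 6 strains, used the covariance from each gene's own voom weights. Log2 CPM used a prior count of 2. Between 40020424 and 49894856 gene reads per mouse leave counting error that matters for Tnc and Vcan. Scripts were tested on simulated data. Alternatives were edgeR's quasi-likelihood test, DESeq2 1.42.0, other factors, filters, covariates and weights, and leaving out mice.

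Replicates were numbered in accession order, and no pair of libraries of the same strain and diet agreed within sampling noise. Pairs across groups were not compared. The genes named were the 10, up to 3 called genes of largest change per strain and list of other matrix genes (mean log2 CPM of at least 0), and the 3 genes most correlated with each of the 10, of which 1 is not reported here. Other genes (Acta2, Tagln) were named after their values were seen, and Spp1 and Krt19 as genes shared by marker lists. The members and lists were chosen with earlier results of these data known.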

Additional observations from a re-analysis of the deposited data

Results flagged for a closer look

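In 20 of 140 groups of a gene, a strain and a diet, 1 mouse lay far from the rest by Dixon's criterion, where chance gives about 1 in 20, or 7. C57BL/6J CD replicate 2 was high for Fbn1 (22.6 CPM), Lum (98.1 CPM), Bgn (381 CPM), Eln (54.0 CPM) and Efemp1 (25.3 CPM). C57BL/6J WD replicate 3 was high for Bgn (449 CPM), Eln (43.2 CPM) and Efemp1 (25.5 CPM). CAST/EiJ WD replicate 3 was high for Tnc (2.26 CPM), Fbn1 (8.53 CPM) and Lum (6.71 CPM). PWK/PhJ CD replicate 5 was low for Fn1 (1186 CPM against 1564 to 1841 CPM in the other 5 mice), Dcn (75.0 against 99.3 to 112 CPM) and Bgn (98.3 against 138 to 143 CPM). Fn1 was high in WSB/EiJ WD replicate 4 (3094 against at most 2096 CPM) and CAST/EiJ CD replicate 4 (3125 against at most 2199 CPM). The others were Dcn in 129S1/SvImJ WD replicate 6 (225 CPM), Bgn in DBA/2J WD replicate 6 (low, 120 CPM), Vcan in A/J WD replicate 3 (0.961 against at most 0.370 CPM) and Efemp1 in 129S1/SvImJ WD replicate 3 (16.9 CPM).

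The diet effect differed between the 7 strains by the F test for Postn (adjusted p = 1.2e-09), Vcan (adjusted p = 1.0e-04), Tnc (adjusted p = 0.0020), Lum (adjusted p = 0.0023), Dcn (adjusted p = 0.0035), Bgn (adjusted p = 0.0044) and Fbn1 (adjusted p = 0.010). Against the mean of the other 6 strains, the log2 diet effect of PWK/PhJ differed by 3.34 for Postn, 2.97 for Vcan, 2.70 for Tnc, 2.68 for Lum, 1.09 for Fbn1, 0.57 for Bgn and 0.54 for Dcn. The difference was -0.45 for Bgn in DBA/2J, -1.06 for Postn in WSB/EiJ, and -0.85 for Postn and -2.43 for Vcan in CAST/EiJ. The last of these rests on few reads and on cohorts that differed in direction.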

How the results depend on the processing

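Over all strains, 17 calls were made among the 10 genes, and none of the fold changes of a gene in a strain that were recomputed under the alternatives reversed. The 7 calls in PWK/PhJ and the 4 in 129S1/SvImJ held under each alternative that tested the gene and without any single mouse of the strain. Requiring 10 counts in every mouse left Tnc and Vcan untested and gave 10 calls in all, with 2 in C57BL/6J, 2 in 129S1/SvImJ and 0 in A/J. Sample quality weights gave 28 calls, with 3 in A/J and 1 in WSB/EiJ. A separate fit per strain gave 4 calls in A/J and 7 in 129S1/SvImJ. In WSB/EiJ 1 gene was called by edgeR's quasi-likelihood test, DESeq2, cohort within strain, and without the mice that stood apart, and in CAST/EiJ edgeR and DESeq2 called 1 rise. With the F test run without PWK/PhJ, 1 gene passed. Without the 2 C57BL/6J mice A/J had 2 calls. Settings without these mice or PWK/PhJ were chosen after seeing the data. Leaving out 1 mouse at a time gave 17 to 22 calls in all, 3 to 7 in C57BL/6J (7 without CD replicate 2, 3 without WD replicate 3) and 0 to 1 in WSB/EiJ (1 without WD replicate 3). Fbn1 in C57BL/6J lost its call under edgeR (log2 fold change 0.53, adjusted p = 0.089), DESeq2 (0.54, adjusted p = 0.077), cohort within strain (0.49, adjusted p = 0.077) and a separate fit (0.70, adjusted p = 0.25). The cause of the other shifts was not tested. Shares of all genes called under the alternatives are not given, so the counts of calls under them have no background beside them. Few reads limit Tnc and Vcan on CD. No paired analysis was possible because the CD and WD mice were different animals.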
